A study of Sus scrofa with 6 samples.

Results

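The articular samples at day 10 of culture and from native tissue are 2 of the 6 arrays of a porcine study of cartilage, and they were chosen by their labels. 1 array held RNA of native articular cartilage, and 1 array held RNA of primary chondrocytes that had been released from articular cartilage with collagenase and kept in culture until day 10. The sample title calls this time day 10 of differentiation. The medium was DMEM/Ham's F12 with fetal bovine serum and antibiotics, with no further supplement, at 37 °C in 5% oxygen and 5% carbon dioxide. For each sample 100 ng of RNA went through two-cycle amplification and biotin labelling before hybridisation to an Affymetrix porcine array. The other arrays held articular cultures at day 20, native growth plate cartilage, and growth plate cultures at day 10 and day 20. The genotype, breed and age of the animals, and whether RNA of several animals was pooled or both articular samples came from the same animals, are not given in the sources used here. The question of the comparison is how articular chondrocytes differed from the native tissue after isolation and early culture. With 1 array per condition there is no replicate error and no test, so every difference below is between 2 arrays.

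Articular chondrocytes are the resident cells of joint cartilage. They rarely divide in the adult and are embedded in a matrix of type II collagen and aggrecan. The transcription factor SOX9 drives that matrix programme. Removed from their matrix and grown with serum, chondrocytes are known to re-enter the cell cycle and, over time, to exchange cartilage genes for fibroblast-like ones, which is called dedifferentiation.

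A gene's level is given as the signal of 1 probe set, a linear intensity, and levels of different genes are not compared. Signals under a floor of 36.1, the 40th percentile of all non-control signals, were raised to that floor for ratios, so a fold whose lower array lay at the floor is a lower bound and is written "at least". Of 5598 genes compared, 249 (4.45%) were at least 4-fold higher at day 10 than in native cartilage and 97 (1.73%) were at least 4-fold lower. At 2-fold the counts were 897 higher (16%) and 535 lower (9.56%), and 2930 genes (52.3%) lay within 1.5-fold. The 2-fold counts of every list below are to be read beside these shares of all genes. The median log2 ratio over all genes was 0.05. Folds of at least 16 were found for 16 higher and 9 lower genes. Lower bounds made up 53 of the 249 higher and 12 of the 97 lower genes.

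**Figure D1:**
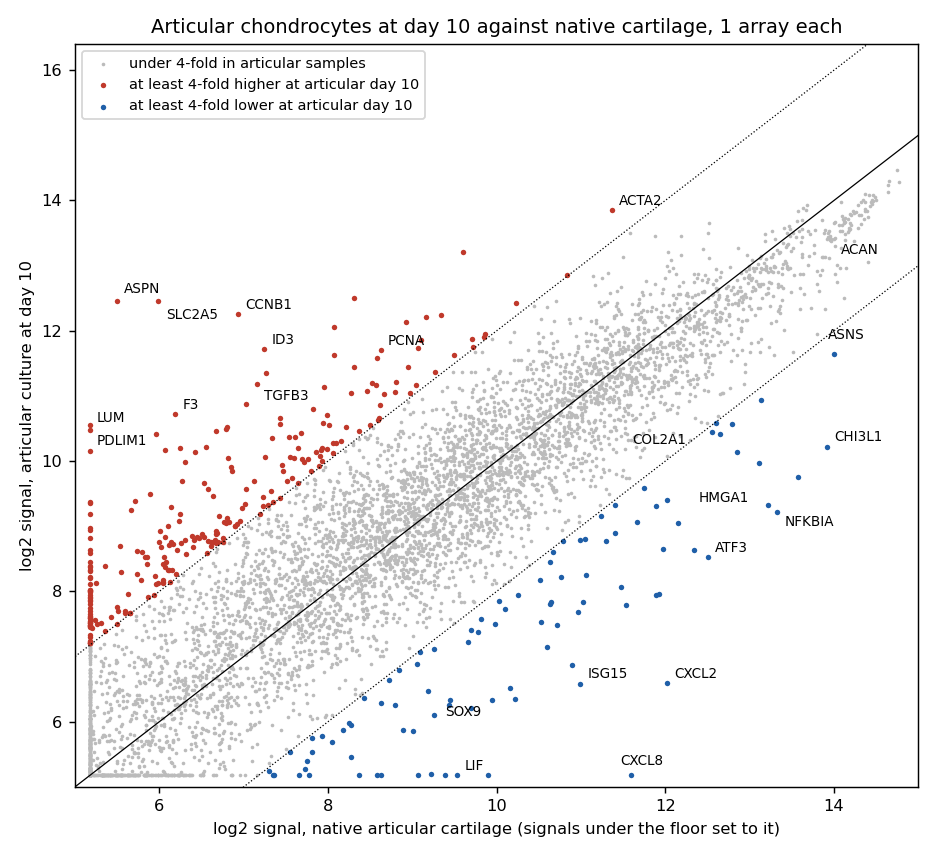
Log2 signal of each gene on the native articular array (horizontal axis) against the day 10 articular array (vertical axis), signals under the floor set to it; the solid line marks equal signals and the dotted lines a 4-fold difference. The 249 genes at least 4-fold higher at day 10 lie above the upper dotted line and the 97 at least 4-fold lower lie under the lower one.

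The native articular array stood apart from the others. Its mean correlation of log2 signals with the other arrays was 0.890, against 0.930 to 0.939 for each of the other 5, and its median signal was 59.5 against 68.7 on the day 10 array. The share of probe sets above the floor was 58.6% on the native and 60.3% on the day 10 array. The ratios of 3′ to 5′ control probe sets, a sign of RNA integrity, were 4.28 and 4.58 for actin, 1.52 and 1.44 for GAPDH, 9.88 and 12.5 for another GAPDH control and 1.07 and 1.45 for EF1a, native first. Their part in the differences was not tested. With native growth plate in place of native articular cartilage as the reference, a change made after seeing the data, articular day 10 had 40 genes past 4-fold upwards and 59 downwards. The part of the native articular array in the counts cannot be told apart from that of culture, because it is the only native articular sample. Under quantile normalization the split was 176 higher and 119 lower (59.7% higher, against 72.0% as deposited), and under median centring, which moved the median of all genes by -0.16, it was 182 and 139 (56.7% higher).

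Most immune, endothelial, skeletal muscle and epithelial markers lay under the floor in both articular samples. Of 8 macrophage markers on the array, 1 lay above the floor in native tissue and 0 at day 10. The same counts were 1 and 0 of 9 for lymphocytes, 2 and 0 of 5 for granulocytes, and 4 and 3 of 10 for endothelium, with summed endothelial signals of 616 and 401. Erythroid markers gave 2 and 1 of 4, with summed signals of 467 and 668. Osteoblast markers gave 3 and 2 of 5, osteoclast markers 2 and 1 of 5 (CTSK at day 10), adipocyte markers 3 and 2 of 5, epithelial markers 2 and 1 of 6 and skeletal muscle markers 0 and 1 of 7. Markers of pericytes and smooth muscle stood out in the other direction, with 1 of 4 above the floor in native tissue and 4 of 4 at day 10, and summed signals of 169 and 1354. Of these, MCAM was just above the floor at day 10, at 37.3. Markers shared by synovial and dermal fibroblasts gave 4 and 5 of 6, with summed signals of 6376 and 14527. The tendon list had 0 genes on the array. Of 19 chondrocyte markers listed, 7 were on the array. Their summed signals were 39925 and 31540, and 6 were above the floor on both arrays, among them COL2A1, ACAN, HAPLN1 and COMP. SOX6 was under the floor on both. In bulk RNA, fewer cells of a type and less RNA per cell cannot be told apart. The part of other cell types in the differences below was not tested.

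Genes of cell division were mostly higher at day 10. Of 26 mitotic genes, 18 were at least 2-fold higher at day 10 (69.2%, against 16% of all genes), 0 were 2-fold lower, and the median log2 ratio was 1.95 against 0.05 for all genes. Under other settings that median lay between 1.57 and 2.09. CCNB1, the cyclin that activates the mitotic kinase CDK1, had a signal of 122 in native cartilage and 4877 at day 10, a log2 ratio of 5.32. CDC20, which activates the anaphase-promoting complex, went from 62.0 to 1369 (22.1-fold). Both were low in the tissue sample and high in the culture. CCNB2, the second B-type cyclin, had 85.5 and 1128 (13.2-fold). NDC80, a kinetochore protein that holds microtubules, had 111 and 1438 (13.0-fold). PTTG1, the securin that restrains sister chromatid separation, had 484 and 4516 (9.33-fold). Signals of these genes were many times higher in the culture, though not every member of the list differed. The polo-like kinase PLK1 was under the floor in native tissue (20.9) and at 335 at day 10, at least 9.27-fold higher. Its log2 ratio of 3.21 came to 1.30 with the floor at the 60th percentile. RACGAP1, a cytokinesis regulator, had 4794 and 4730.0, and CKS2, a CDK-binding subunit, had 5817 and 5058, both within 2-fold. PIMREG, a mitotic regulator outside the list, was at 7.55 and 656, at least 18.1-fold higher.

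DNA replication genes followed with a smaller shift. Of 19 compared, 8 were at least 2-fold higher (42.1%, against 16% of all genes) and 0 lower, with a median log2 ratio of 0.73. PCNA, the sliding clamp of DNA polymerases, had a signal of 394 in native cartilage and 3319 at day 10 (8.43-fold). RRM2, the regulated subunit of ribonucleotide reductase, had 838 and 3734 (4.45-fold), and POLE2, a subunit of DNA polymerase epsilon, had 63.7 and 430.5 (6.76-fold). The helicase subunits differed less: MCM2 had 1891 and 1433, and MCM5 695 and 819. The histone chaperone ASF1A, which hands histones to newly made DNA and is outside the lists, had 102 and 1411 (13.8-fold). LMNB1, the B-type lamin of the nuclear envelope, had 78.7 and 1013 (12.9-fold), and EZH2, the histone methyltransferase of the Polycomb complex, had 547 and 1321 (2.42-fold). In the list of chromatin and HMG proteins that holds both, 3 of 16 were 2-fold higher and 1 lower, and the median (0.12) turned to -0.09 under median centring. The lower member was HMGA1, an architectural chromatin protein, at 9486 in native tissue and 640.2 at day 10 (14.8-fold).

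The articular arrays at day 10 and day 20 are set against the same native array, and the growth plate pair uses other arrays. The median log2 ratio of the mitotic list was 1.95 at articular day 10, 0.25 at articular day 20 and 0.02 at growth plate day 10. CCNB1 had a signal of 1596 at articular day 20, and 3983 in native growth plate and 4175 in its day 10 culture. Native articular cartilage was thus the low sample among the 6 for this gene. For replication genes the 3 medians were 0.73, -0.46 and 0.68. Whether the articular and growth plate differences themselves differ was not tested.

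More of the cell cycle inhibitors and p53 targets were lower at day 10 than higher. Of 15, 2 were at least 2-fold higher (13.3%, against 16% of all genes) and 4 lower (26.7%, against 9.56%, median -0.55). BTG2, an antiproliferative early response gene, had 265 and 68.9 (3.84-fold lower). CDKN1A, which encodes the CDK inhibitor p21, had 2552 and 2618, within 2-fold.

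**Figure D2:**
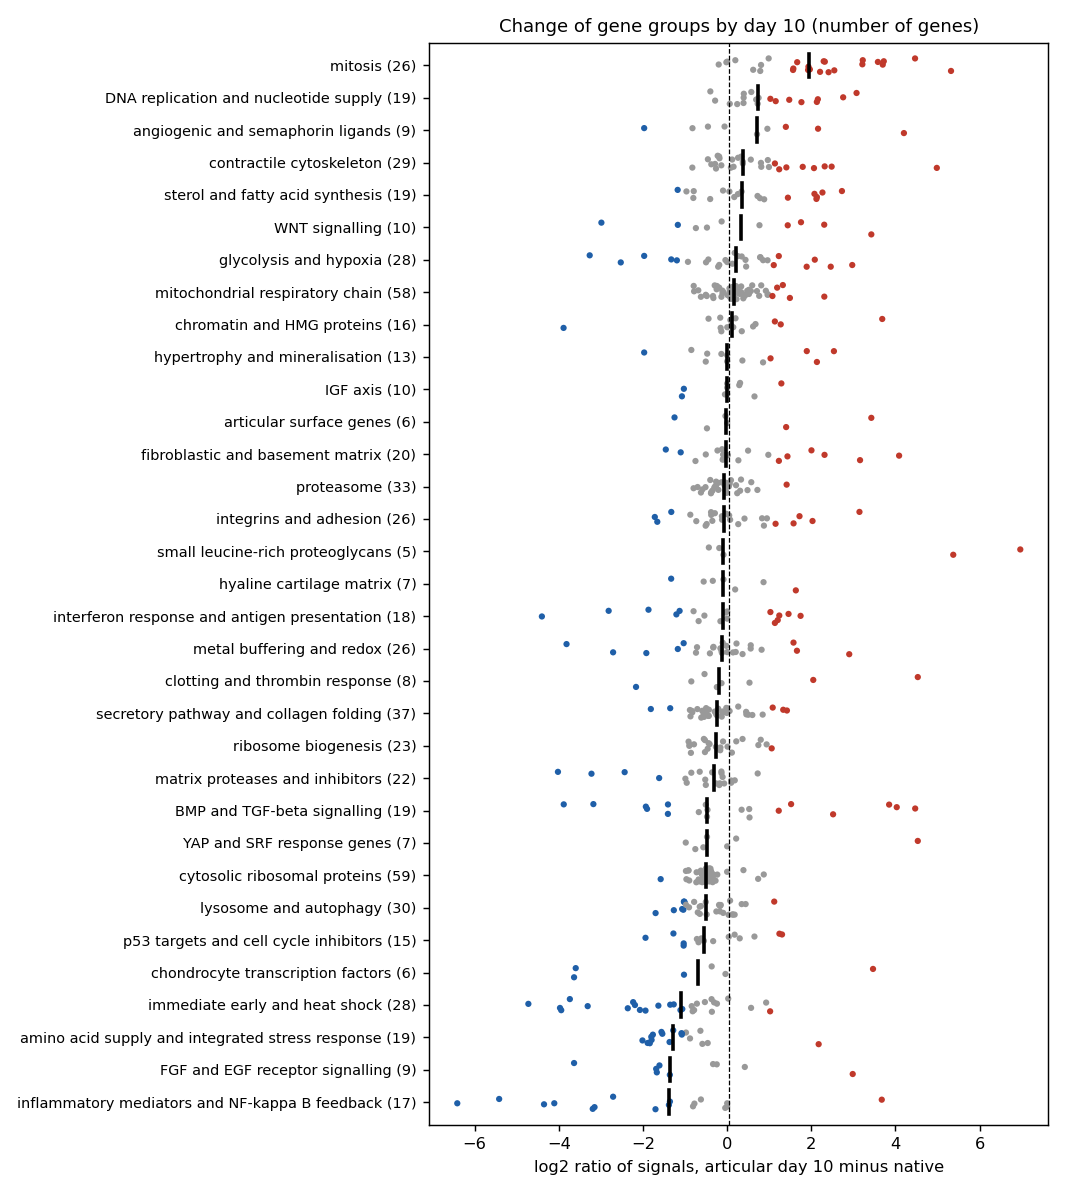
Log2 ratios of day 10 over native articular signals for the genes of each list, with the number of genes compared beside each name; points are genes, the marks are list medians and the dashed line is the median of all genes, 0.05. The mitotic list lies farthest to the right, and the inflammatory, FGF and EGF receptor, amino acid supply and immediate early lists lie farthest to the left.

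Inflammatory mediators were mostly lower at day 10. Of 17 compared, 10 were at least 2-fold lower (58.8%, against 9.56% of all genes) and 1 was higher, with a median of -1.38 that lay between -2.21 and -0.81 under other settings. CXCL8, a chemokine that attracts neutrophils, had a signal of 3084 in native cartilage and was under the floor at day 10 (34.8), at least 85.4-fold lower. CXCL2, a chemokine of the same family, had 4133 and 96.5 (42.8-fold). NFKBIA, the inhibitor that NF-kappa B induces to shut itself off, had 10273 and 595 (17.3-fold). All 3 had far higher signals in the tissue sample than in the culture. The cytokine LIF had 739 and 29.4 (at least 20.4-fold lower), the transcription factor IRF1 had 2085 and 228 (9.16-fold), and SOD2, the mitochondrial superoxide dismutase that NF-kappa B induces, had 7405 and 1130.3 (6.55-fold). Other members lay within 2-fold, among them PTGS2, the inducible cyclooxygenase, at 804 and 468, and IL1B at 164 and 158. IL6 was under the floor on both arrays. The higher member was PTX3, a secreted pattern recognition protein, at 52.1 and 666 (12.8-fold), but its second probe set was under the floor on both arrays. TNFRSF1B, a receptor for tumour necrosis factor outside the list, had 1895 and 117 (16.2-fold lower).

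Native articular cartilage had the highest signal of the 6 arrays for several of these genes. CXCL8 had 91.2 at articular day 20, 550.3 in native growth plate and 49.8 in its day 10 culture. NFKBIA had 797, 1849 and 383 in the same order. The list medians were -1.01 at articular day 20 and -1.84 at growth plate day 10. In the interferon list, 6 of 18 genes were 2-fold higher and 5 lower (median -0.10, and -0.80 when only genes above the floor on both arrays were compared). The interferon-induced modifier ISG15, which is attached to proteins much as ubiquitin is, had 2032 and 96.0 (21.2-fold lower), and TAP1, which carries peptides to class I molecules, had 1582 and 224 (7.05-fold). USP18, which removes ISG15 from proteins, went the other way, at 83.5 and 279.9. The class I genes SLA-2 and SLA-3 were also lower, but near-identical copies make their signals uncertain.

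Immediate early and heat shock genes were lower as well. Of 28, 15 were at least 2-fold lower (53.6%, against 9.56% of all genes) and 1 higher (3.57%, against 16%), with a median of -1.09. NR4A2, an orphan nuclear receptor induced quickly by many stimuli, had 956 in native tissue and 32.4 at day 10 (at least 26.5-fold lower). ATF3, a stress-induced transcription factor, had 5789 and 368 (15.7-fold), and JUN, a subunit of the AP-1 factor, had 2955 and 221 (13.4-fold). These encode short-lived products that respond quickly to stimuli. ZFP36, which speeds the decay of cytokine mRNAs, had 3778 and 245 (15.4-fold). DUSP1, a phosphatase that switches off MAP kinases, had 16411 and 3190.4 (5.14-fold). EGR1 did not share the difference, at 290.5 and 431, nor did IER3, at 1524 and 1228. The higher member was HSPA8, the constitutive heat shock cognate, at 4301 and 8725 (2.03-fold). The medians of the list were -0.56 at articular day 20 and -0.45 at growth plate day 10. ATF3 had 426 in native growth plate and 571 in its day 10 culture.

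The genes of amino acid supply and the integrated stress response, which the factor ATF4 induces when amino acids are short, were lower in most cases. Of 19, 13 were at least 2-fold lower (68.4%, against 9.56% of all genes) and 1 higher (5.26%, against 16%), with a median of -1.28. ASNS, asparagine synthetase, had 14199 in native tissue and 3967 at day 10 (3.58-fold). PSAT1, an enzyme of serine synthesis, had 15179.5 and 5139 (2.95-fold). SARS, the seryl-tRNA synthetase, had 6212 and 1538 (4.04-fold). The amino acid transporters SLC1A5, at 4628 and 1332, and SLC3A2, at 1155 and 331, were lower by similar folds. The stress effector DDIT3 lay within 2-fold, at 225 and 149, and PHGDH, the first enzyme of serine synthesis, had 1033 and 749. The higher member was VLDLR, a lipoprotein receptor, at 71.0 and 321 (4.51-fold). The list medians were -0.74 at articular day 20 and -0.38 at growth plate day 10.

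**Figure D3:**
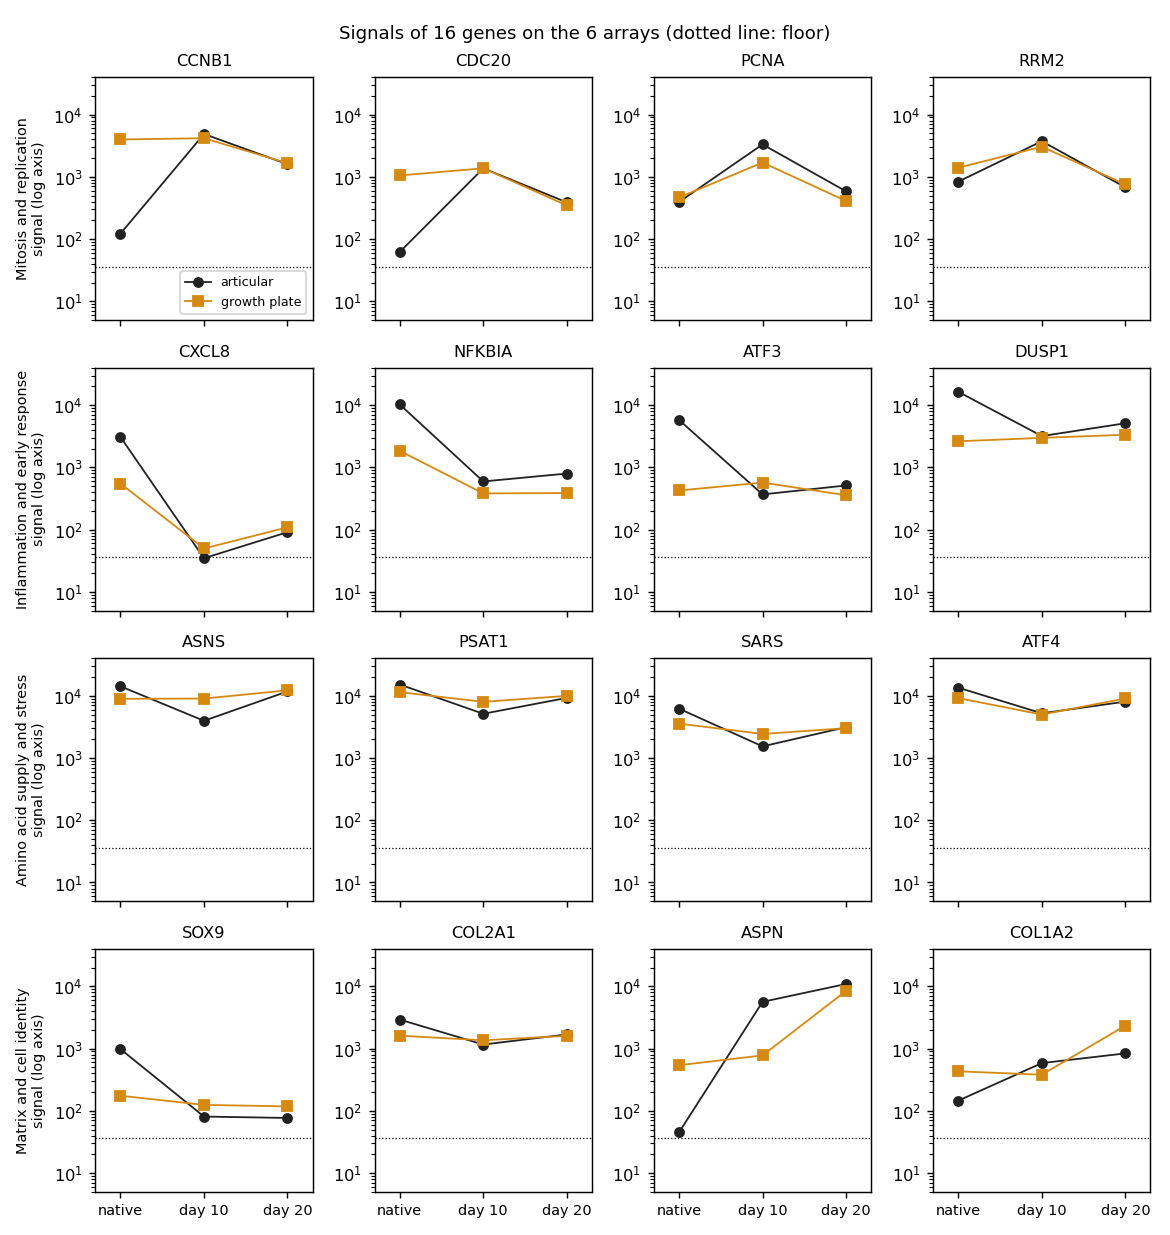
Signals of genes of cell division, inflammation and early response, amino acid supply, and matrix and cell identity on the 6 arrays, by stage (horizontal axis) on a log axis, with circles for articular and squares for growth plate samples and the floor as a dotted line; each point is 1 array. CCNB1 is low on the native articular array alone (122), and CXCL8 and NFKBIA are highest there (3084 and 10273).

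The cartilage matrix genes differed little beside these groups. Of 25 hyaline matrix genes listed, 8 were on the array and 7 were compared. Of these 7, 1 was 2-fold higher and 1 lower, and the median (-0.09) turned to 0.09 under quantile normalization. COL2A1, the chain of type II collagen, had 2929 in native tissue, 1164 at day 10 and 1689 at day 20, 2.52-fold lower at day 10. ACAN, the proteoglycan aggrecan, had 15883, 10781 and 10267. HAPLN1, the link protein that fastens aggrecan to hyaluronan, had 16339, 12888 and 16969.6. ACAN and HAPLN1 thus lay within 2-fold of native tissue at day 10, while COL2A1 was lower. The second probe sets of COL2A1 and ACAN were under the floor on all arrays. COMP, a matrix thrombospondin, had 3390.0 and 6170.0, and SCRG1, a small secreted protein of cartilage, had 2889 and 8953 (3.10-fold higher).

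SOX9 differed more than the genes of its programme. Its signal was 982 in native cartilage, 81.0 at day 10 and 76.8 at day 20, 12.1-fold lower at day 10. In growth plate samples it was 175 in native tissue and 125 at day 10. ETV5, a transcription factor induced by FGF signalling, had 1144, 91.8 and 782 in the articular samples (12.5-fold lower at day 10), with a second probe set that had 55.1 in native tissue and was under the floor at day 10. Among 6 chondrocyte transcription factors, 3 were 2-fold lower and 1 was higher (median -0.70). The higher was FOXA2, a factor of hypertrophic chondrocytes, under the floor in native tissue (18.1) and at 399 at day 10 (at least 11.1-fold). Its log2 ratio of 3.47 came to 1.55 with the floor at the 60th percentile. ERG, a factor of the articular surface, had 781 and 759.

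Of 6 articular surface genes, 2 were 2-fold higher and 1 lower (median -0.02). CLU, the chaperone clusterin, had 7042 and 2957 (2.38-fold lower), and DKK3, a secreted protein of the Dickkopf family, had 77.0 and 827 (10.7-fold higher). Hypertrophy and mineralisation genes, which mark the terminal growth plate chondrocyte, gave 4 higher (30.8%, against 16% of all genes) and 1 lower (7.69%, against 9.56%) of 13. Their median of 0 came to 0.85 when only genes above the floor on both arrays were compared. COL10A1 was under the floor on both arrays. IBSP, a mineral-binding bone sialoprotein, had 53.2 and 309 (5.80-fold), and DLX5, an osteogenic homeobox factor, had 101 and 443 (4.39-fold). The log2 ratio of IBSP, 2.54, came to 1.18 with the floor at the 60th percentile. PTH1R, the receptor of parathyroid hormone-related protein, had 136 and 503 (3.71-fold).

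The small leucine-rich proteoglycans, which bind collagen fibrils, held the gene of the largest measured ratio. ASPN, asporin, had a signal of 45.1 in native cartilage, 5643 at day 10 and 10935 at day 20, 125-fold higher at day 10. LUM, lumican, was under the floor in native tissue (15.5) and had 1498 at day 10 and 2784 at day 20, at least 41.5-fold higher at day 10. In growth plate samples ASPN had 541 in native tissue and 777 at day 10, and LUM 956 and 779.6. Both genes were therefore at or near the floor in native articular cartilage and above it on the other arrays. The remaining members lay within 2-fold: BGN, biglycan, had 12556 and 9281, DCN, decorin, had 3319 and 2914, and PRELP had 9892 and 9304. Of 5 compared, 2 were 2-fold higher, and the median (-0.09) turned to 0.23 under quantile normalization.

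Fibroblastic and basement membrane matrix genes did not move as a group. Of 20, 6 were at least 2-fold higher (30%, against 16% of all genes) and 2 lower (10%, against 9.56%). The median was -0.02 (0.26 under quantile normalization) at day 10 and 0.55 at day 20 against the same native array. COL1A2, a chain of type I collagen, had 146, 585 and 838 on the native, day 10 and day 20 arrays. COL3A1, the chain of type III collagen, had 58.0, 157 and 473. THBS2, an adhesive thrombospondin, had 154, 2617 and 3137 (17.0-fold higher at day 10). These 3 genes had their lowest articular signal in native tissue. VCAN, the proteoglycan versican, had 92.0 and 457 (4.97-fold), and COL8A1, a short-chain collagen, had 70.1 and 626 (8.93-fold). Type VI collagen, which surrounds chondrocytes in a pericellular sheath, was lower, with COL6A3 at 17244 and 8017 and COL6A2 at 7875 and 2864. Outside the list, THBS3, another thrombospondin, had 111 and 1472 (13.2-fold higher). CCDC80, a secreted matrix protein and also outside the list, had 269 and 4256 (15.8-fold higher).

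Contractile genes that differed by 2-fold were higher at day 10. Of 29, 8 were at least 2-fold higher (27.6%, against 16% of all genes) and 0 lower, with a median of 0.37 at day 10, 0.64 at day 20 and 0.30 at growth plate day 10. ACTA2, smooth muscle actin, had 2642 and 14768 (5.59-fold). PDLIM1, which links proteins to stress fibres, was under the floor in native tissue (31.3) and had 1142 at day 10 (at least 31.6-fold). CNN1, calponin, had 37.8, just above the floor, and 188 (4.98-fold), a log2 ratio of 2.32 that came to 0.47 with the floor at the 60th percentile. Outside the list, PALMD, palmdelphin, went from 34.0 to 1430.2 (at least 39.6-fold). ADD3, an adducin of the membrane skeleton and also outside the list, went from 75.7 to 1178 (15.6-fold). Among the pericyte and smooth muscle markers counted above, ACTG2 had 130 and 450, and DES had 10.1 and 247. MCAM had 1.41 and 37.3, so its day 10 signal was just above the floor. The part of these markers in this list was not tested. Of those markers, RGS5 had signals of 27.6 and 619. It was above the floor on the articular day 10 array alone of 6, so it was not among the genes compared.

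Integrins and other adhesion genes gave 5 higher (19.2%, against 16% of all genes) and 3 lower (11.5%, against 9.56%) of 26. Their median was -0.07, and 0.17 under quantile normalization. CDH11, a mesenchymal cadherin, had 172 and 1519.7 (8.84-fold higher), and THY1, a surface marker of fibroblasts and mesenchymal cells, had 1818 and 7416 (4.08-fold higher). SDC4, a heparan sulphate proteoglycan of focal adhesions, had 575 and 174 (3.30-fold lower). In the list of YAP and SRF response genes, 1 of 7 was higher and 0 lower (median -0.48). That gene was F3, tissue factor, the starter of clotting, at 72.9 and 1685 (23.1-fold). The clotting list gave 2 higher and 1 lower of 8 (median -0.19, and 0.097 with the floor at the 25th percentile). The thrombin receptor F2R had 58.4 and 241, a log2 ratio of 2.05 that came to 0.83 with the floor at the 60th percentile. PROCR, the protein C receptor, had 1042 and 232 (4.49-fold lower).

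In the BMP and TGF-beta pathway, equal numbers differed in each direction. Of 19 members, 6 were at least 2-fold higher and 6 lower, 31.6% each, against 16% and 9.56% of all genes. The median was -0.47, and 0.05 when a gene's probe sets were averaged. Among ligands, BMP7 had 534 in native tissue and was under the floor at day 10 (24.6), at least 14.8-fold lower. TGFB1 had 564 and 212 (2.66-fold lower). TGFB3 had 143 and 2329 (16.3-fold higher), but its other probe set gave a log2 ratio of -0.095. Among receptors, TGFBR1 had 6323 and 1656 and ACVR1 5743 and 1533, both lower, while BMPR1B was under the floor in native tissue (35.6) and had 207 at day 10. The SMAD mediators split: SMAD3, which carries TGF-beta signals, had 693 and 76.5 (9.07-fold lower), and SMAD1, which carries BMP signals, had 463 and 1328 (2.87-fold higher). The targets ID1 and ID3, which block differentiation factors and are induced by BMP, were both higher. ID1 had 131, 1882 and 878 on the native, day 10 and day 20 arrays (14.4-fold at day 10), and ID3 152, 3358 and 4189.8 (22.1-fold).

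WNT signalling genes gave 4 higher and 2 lower of 10 (median 0.32, and -0.13 when only genes above the floor on both arrays were compared). LEF1, a nuclear partner of beta-catenin, was under the floor in native tissue (28.0) and had 179 at day 10 (at least 4.95-fold), a log2 ratio of 2.31 that came to 0.39 with the floor at the 60th percentile. Of the receptors, FZD2 had 128 and 433 and FZD4 1472 and 185, in opposite directions. The FGF and EGF receptor list gave 1 higher and 5 lower of 9 (median -1.36, between -1.57 and -0.15 under other settings). The ligands FGF2 (116 and 33.1) and HBEGF (115 and 20.5) were under the floor at day 10. The receptors differed in direction, FGFR1 with 1881 and 731 (2.57-fold lower) and FGFR2 with 116 and 919 (7.91-fold higher). DUSP6, the ERK phosphatase that FGF signalling induces, had 280.1 and 91.8 (3.05-fold lower). In the IGF axis 1 of 10 was higher and 2 were lower, with a median of 0. These were IGFBP6, a binding protein, at 353 and 863, and the ligand IGF2, at 627 and 297, and receptor IGF1R, at 381 and 187. Angiogenic and semaphorin ligands gave 3 higher and 1 lower of 9 (median 0.71, and 0 with the floor at the 60th percentile). PTN, the heparin-binding growth factor pleiotrophin, was under the floor in native tissue (35.0) and had 664 at day 10 (at least 18.4-fold), while VEGFA had 5032 and 1282 (3.93-fold lower).

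Matrix proteases and their inhibitors that differed by 2-fold at day 10 were lower. Of 22, 4 were at least 2-fold lower (18.2%, against 9.56% of all genes) and 0 higher (against 16%), with a median of -0.31. The other 18 lay within 2-fold. At articular day 20, against the same native array, 4 were 2-fold higher and 5 lower. The collagenase MMP1 had 807 and 149 (5.42-fold), and CTSK, the collagen-degrading cathepsin K, had 17802 and 5803 (3.07-fold). MMP3, stromelysin, was not among the genes compared because its chosen probe set was too low, but other probe sets of its 4 gave 4319 in native tissue and 14.2 at day 10, at least 120-fold lower, and 1552 and 13.1, at least 43.0-fold lower. Its remaining probe sets gave 113.88 and 11.15, and 38.04 and 36.06, the last pair both near the floor. Some inhibitors were lower too. TIMP3, a metalloproteinase inhibitor bound to the matrix, had 1681 and 179.7 (9.36-fold), and SERPINA1, the inhibitor of neutrophil elastase, had 597 and 36.7 (16.3-fold), the latter just above the floor. TIMP1 had 5158 and 5508. Outside the list, CHI3L1, a secreted glycoprotein of inflamed joints, had 15448 and 1193 (12.9-fold lower) in articular samples. In growth plate samples it had 2984 and 81.6.

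Metabolic lists were mixed. Of 28 genes of glycolysis and hypoxia, 6 were at least 2-fold higher and 5 lower (median 0.22). EPAS1, the oxygen-sensitive factor HIF-2 alpha, had 1989 and 206 (9.63-fold lower), and EGLN1, the prolyl hydroxylase that marks such factors for decay, had 226 and 1775 (7.85-fold higher). ADM, adrenomedullin, had 2515 and 436 (5.77-fold lower), and SLC16A3, a lactate exporter, had 83.5 and 459.9 (5.51-fold higher). Genes that hypoxia is known to induce thus lay on both sides. Outside the list, SLC2A5, the fructose transporter GLUT5, had 63.5 in native articular cartilage and 5642 at day 10 (88.9-fold). In growth plate samples it had 6221 and 2410.2.

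Sterol and fatty acid synthesis gave 6 higher (31.6%, against 16% of all genes) and 1 lower of 19. The median was 0.34 at day 10 and -0.22 at day 20. HMGCS1, an early enzyme of the mevalonate pathway, had 501 and 2110.0 (4.21-fold), FDPS, farnesyl diphosphate synthase, had 445 and 2137 (4.80-fold), and SC5D, a late sterol desaturase, had 253 and 1676 (6.62-fold). The lower member was INSIG1, which restrains that pathway, at 3714 and 1642 (2.26-fold). Metal buffering and redox genes gave 3 higher and 5 lower of 26 (median -0.12, 0.05 under quantile normalization). The metallothionein MT-2B had 12162 and 862 (14.1-fold lower), a value made uncertain by close copies. NQO1, a quinone reductase, had 1474 and 4652 (3.16-fold higher), and CDO1, cysteine dioxygenase, had 647 and 4835 (7.47-fold higher).

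The housekeeping machineries showed small shifts. Of 59 ribosomal protein genes, 56 had ratios under 1 and 3 above, and 1 was 2-fold lower, with a median of -0.50 that came to -0.09 under quantile normalization and -0.70 under median centring. Ribosomal protein probe sets can also bind related pseudogene transcripts. Ribosome biogenesis genes had a median of -0.27, with 1 of 23 higher and 0 lower, and 0.82 at growth plate day 10. The mitochondrial respiratory chain had 5 of 58 higher and 0 lower, and its median of 0.17 turned to -0.03 under median centring. The complex I subunit NDUFA5 led it, at 298 and 1474 (4.95-fold). The proteasome had 1 of 33 higher and 0 lower (median -0.07). Lysosome and autophagy genes had 1 of 30 higher and 7 lower (23.3%, against 9.56% of all genes), with a median of -0.50. Among the lower was SQSTM1, the autophagy receptor p62, at 10448 and 5142 (2.03-fold). The secretory pathway had 3 of 37 higher and 2 lower (median -0.24). Its lower members were HSPA5, the main chaperone of the endoplasmic reticulum, at 21710.0 and 8492 (2.56-fold), and DNAJB9, its co-chaperone, at 2008 and 571 (3.52-fold).

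Genes of large ratio outside the lists had varied roles. PEG10, an imprinted gene derived from a retrotransposon, had 316 and 5818 (18.4-fold higher), with its remaining probe sets under the floor on both arrays. MRAP2, a melanocortin receptor accessory protein, had 66.8 and 1153 (17.3-fold higher). TMEM158, induced by RAS signalling, had 3.84 and 502 (at least 13.9-fold higher). The chemokine CXCL14 was under the floor in native tissue (1.64) and had 490.0 at day 10, in the direction opposite to CXCL8 and CXCL2. AKR1CL1, an aldo-keto reductase, had 15.7 and 583 (at least 16.1-fold higher). Of lower genes, CDA, cytidine deaminase, had 3888 and 250.0 (15.5-fold), and AWN, a spermadhesin, had 1185 and 81.6 (14.5-fold). GPRC5A, an orphan receptor induced by retinoic acid, had 5166 and 399 (13.0-fold). SMAGP, MBP, DTNB and RAB19 had 668, 397, 382 and 329.8 in native articular tissue and were under the floor at articular day 10. At articular day 20 they were above the floor again, at 80.0, 128.6, 50.5 and 64.2. They were also above it in native growth plate.

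Set beside the growth plate pair, which shares no array with the articular pair, fewer genes passed 4-fold there. At growth plate day 10, 24 genes (0.429%) were at least 4-fold higher than in native growth plate and 55 (0.982%) lower, and past 2-fold the shares were 7.41% higher and 6.86% lower. Genes higher in both tissues numbered 10, which is 4.02% of the articular and 41.7% of the growth plate list. Genes lower in both numbered 20, or 20.6% and 36.4%. Of the 249 genes higher in articular culture, 71 (28.5%) were at least 2-fold higher in growth plate culture, 163 (65.5%) lay within 2-fold and 15 (6.02%) were at least 2-fold lower. Of the 97 lower genes, 50 (51.5%) were at least 2-fold lower there, 47 (48.5%) lay within 2-fold and 0 were 2-fold higher. For the 249 genes the median signal was 85.5 in native articular cartilage, 531 at articular day 10, 375 in native growth plate and 486 in its day 10 culture. The low value among these 4 medians was that of native articular cartilage, on whose array the genes were chosen. For the 97 genes the medians were 1185, 167, 305 and 146. The difference between the tissues was not tested.

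**Figure D4:**
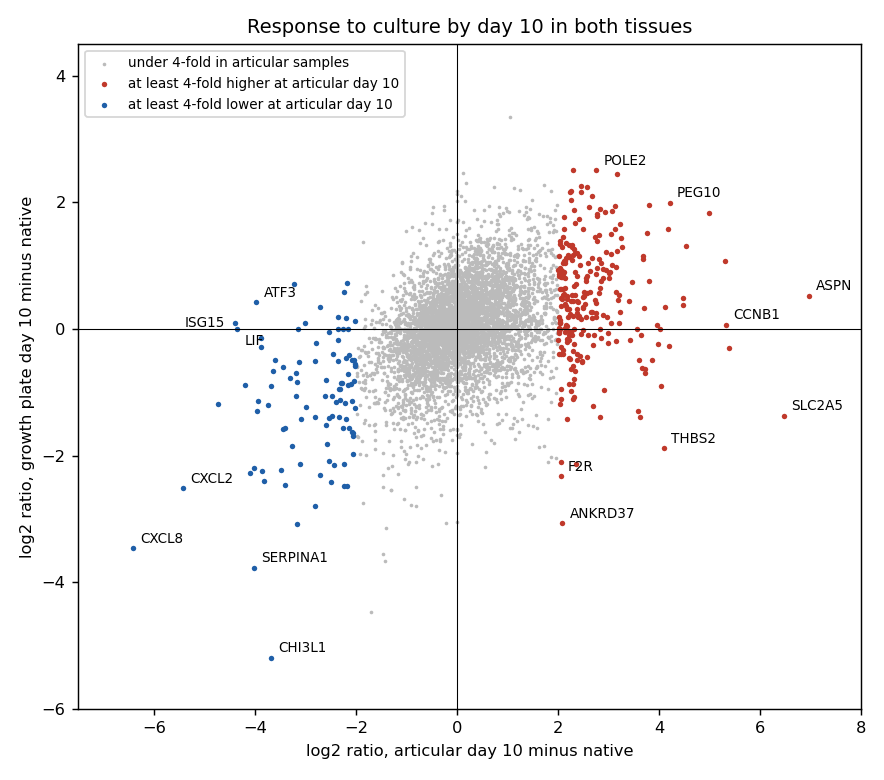
Log2 ratio of day 10 over native signals in articular (horizontal axis) and growth plate samples (vertical axis) for 5598 genes, 1 array per condition. CXCL8, CXCL2, SERPINA1 and CHI3L1 are lower in both tissues, while CCNB1 and ASPN are far to the right with growth plate values of 0.07 and 0.52.

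The only internal repeat of a measurement was a gene with more than 1 probe set, which shares the RNA and the array and so does not measure biological error. In 1489 pairs of probe sets of 1163 genes, all above the floor on both arrays, the log2 ratios of a pair differed by a median of 0.49, and 21.1% differed by at least 1, that is 2-fold. The correlation of the ratios across these pairs was 0.515, as a description. For genes at least 4-fold higher, 48 such pairs of 35 genes were available: the other probe set had the same direction in 41, was at least 2-fold higher in 28 and at least 2-fold lower in 2. For genes at least 4-fold lower, 14 pairs of 11 genes gave the same direction in 12, at least 2-fold lower in 8 and at least 2-fold higher in 1. EGLN1 had log2 ratios of 2.97, 2.71 and 1.36 from 3 probe sets, and TIMP3 had -3.23 and -3.77 from those above the floor. THBS3 had 3.72 and 3.40. A ratio of 2-fold from a single probe set is thus within the spread between probe sets of 1 gene for a fair share of genes. The comparison covered few of the 4-fold genes: they had 139 other probe sets on the higher and 47 on the lower side, of which 54 and 19 were under the floor on both arrays.

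**Figure D5:**
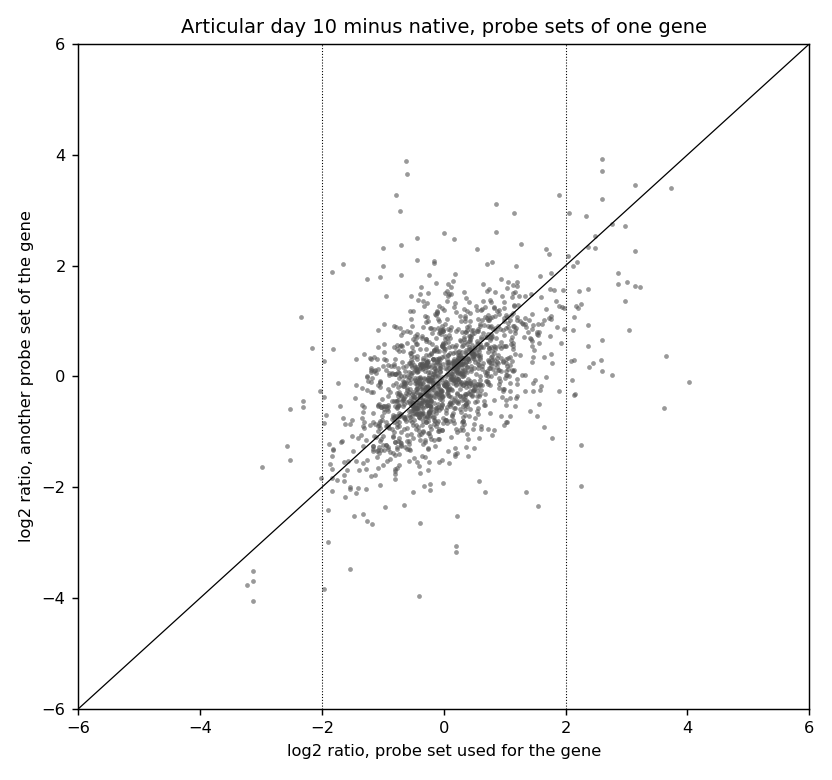
Log2 ratio of day 10 over native articular signals from the probe set used for a gene (horizontal axis) and from another probe set of the same gene (vertical axis), for pairs above the floor on both arrays. The 1489 pairs differ by a median of 0.49.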

How the data were processed

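RNA of native articular cartilage and of articular chondrocytes at day 10 of culture was measured on 1 array each, of 6 arrays in the series. Each deposited value is the linear signal intensity of a probe set, for which the authors used GCOS 1.4, per the submitters' processing notes. Which algorithm settings and scaling target they chose is not given in the sources used here. The mean signal without the top and bottom 2% of probe sets was 400.1 on every array, so the values were not normalized again. Arrays hold no read depth, and their number limits the precision. All 6 value columns matched a sample, so 0 were left out.

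Of 24123 probe sets, 124 controls were left out. The platform's annotation gave 10069 probe sets 1 symbol, 198 several and 13732 none. Of those with 1 symbol, 9961 had a current RefSeq gene ID. A gene's value was that of its probe set with the highest average log2 signal across arrays, and genes above the floor on at least 2 arrays were compared (5598 of 6765). A floor at the 40th percentile of signals and log2 followed. Named genes were the 15 each way of largest measured ratio, the 8 each way of largest lower bound, and members of 33 gene lists. Another 14 lists held cell type markers. Genes, lists and comparisons were chosen with earlier results of these data known. No test was possible with 1 array per condition. The ratio script was tested on simulated data. Python 3.11.15, pandas 2.3.3, numpy 2.4.6 and matplotlib 3.10.9 were used. Alternatives were other normalizations, floors, filters, probe set rules, fold limits and reference arrays.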

Additional observations from a re-analysis of the deposited data

Results flagged for a closer look

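For 7 named genes the day 10 sample was at least 4-fold above native tissue in articular samples, while growth plate samples differed by at least 2-fold the other way. The difference between the tissues was not tested, since each condition had 1 array. SLC2A5, a fructose transporter, had log2 ratios of 6.47 in articular and -1.37 in growth plate samples. THBS2, a thrombospondin, had 4.09 and -1.89. NEK2, a centrosome kinase, had 3.58 and -1.30, with articular signals of 50.6 and 607 and growth plate signals of 1169.9 and 476. LEF1 had a lower bound of 2.31 and -1.08, with 2408 in native growth plate against a signal under the floor in native articular cartilage. ANKRD37, a hypoxia-induced gene, had 2.08 and -3.07. THY1 had 2.03 and -1.19, and the thrombin receptor F2R had 2.05 and -2.32.

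The 4-fold articular difference was lost under some settings for 5 of these genes. With the floor at the 60th percentile the articular log2 ratio came to 0.39 for LEF1, 0.59 for ANKRD37 and 0.83 for F2R. Under quantile normalization it was 1.85 for ANKRD37 and 1.77 for F2R. THY1 had 1.82 under median centring and 0 from a probe set under the floor on both arrays. NEK2 had 1.19 when its probe sets were averaged, of which those not used above were under the floor on both arrays. At growth plate day 20, against the same native array as day 10, the growth plate log2 ratios were 0.77 for SLC2A5, 1.39 for THBS2, 1.12 for ANKRD37 and 0.45 for THY1, above native tissue. They were -2.38 for NEK2, -0.25 for LEF1 and -2.80 for F2R, below it.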

How the results depend on the processing

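Of 30 recomputed counts of genes past the fold limit, 23 stayed within 1.5 times the counts reported and 7 did not. Not all of these came from a change of processing. Articular day 20 in place of day 10, another sample, gave 243 higher and 99 lower genes, which are 2 of the 23. The 2-fold and 8-fold limits change what is counted. A floor at the 60th percentile gave 120 higher genes, a 2-fold limit 897 higher and 535 lower, and an 8-fold limit 58 and 38. Native growth plate as the reference, added after seeing the data, gave 40 and 59. The cause of the last was not tested. For 108 named genes, 642 of the recomputed log2 ratios moved by less than 1.5-fold, 89 by more, and 1 changed direction: TGFB3, at -0.095 from the probe set of smaller ratio. Of list medians, 348 moved by less than that and 10 by more. No paired analysis was possible because each condition had 1 array. Ratios near the floor are limited by signal over background.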

Other observations

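Probe sets without a single gene symbol were not used above. Of 8062 such probe sets that passed the same filter, 454 (5.63%) were at least 4-fold higher at articular day 10 than in native cartilage and 152 (1.89%) lower, against 4.45% and 1.73% of named genes.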
